A study of Homo sapiens with 6 samples.

Results

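The netrin ligands and the receptors that bind them were examined by RNA sequencing in A375, an established human melanoma cell line. The set held 10 genes of the 58302 gene IDs counted, namely the receptors UNC5A, UNC5B, UNC5C, UNC5D, DCC, NEO1 and DSCAM and the ligands NTN1, NTN4 and NTNG1. The genes were picked by family name but are not the whole family, since NTN3, NTN5, NTNG2, UNC5CL and DSCAML1 are not members. The family was selected on its response in these libraries, since the fold changes of UNC5D and DCC between the groups below were already known. The fold changes of the members below are therefore a description. Where a member is said to pass or not to pass a DESeq2 or edgeR threshold, this too describes its values and is no test of the set.

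Netrins are laminin-related proteins that steer growing axons and migrating cells. DCC and its relative neogenin (NEO1) mediate attraction toward netrin-1, whereas the UNC5 receptors, alone or joined with DCC, mediate repulsion. DCC and the UNC5 proteins are also known as dependence receptors, which signal for cell death when no ligand is bound. In the skin, the pigment cell lineage arises from the neural crest, whose cells migrate along guidance cues of this kind.

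Cells carrying an empty vector (3 libraries) were compared with cells of the HMGB2 overexpression genotype (3 libraries). HMGB2 is a chromatin protein that bends DNA. The study describes its overexpression lines as stable A375 lines made by lentiviral transduction and selected with blasticidin or puromycin. Its reporting form calls the replicates of each group technical, so any p-value here measures the spread between samples of a line and not between independent transductions. All samples were human A375 cells, with no further treatment named in the labels. Neither of the groups can show whether a second transduction would give the same values.

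Reads assigned to genes ranged from 45925053 to 56755212 per library. HMGB2 itself rose from 7514 ± 243 (SD, n = 3) to 15517 ± 1177 normalized counts, that is, counts divided by the size factor of the library, which is 1.05 on the log2 scale (SE 0.10) at a DESeq2 adjusted p of 4.4e-22. Reads of the introduced copy and of the cells' own gene cannot be told apart in these counts. Of 7 melanocytic markers, 4 received an adjusted p and 0 were called by DESeq2. Their summed level, which rests mainly on S100B and MITF, was 143 to 161 TPM (transcripts per 1000000 after correction for length) with empty vector and 151 to 177 with HMGB2 overexpression. MITF and S100B were at 1442 and 3443 normalized counts with empty vector, while MLANA, TYR and DCT were at or near 0 in all libraries. SOX10 was listed at 0 in the column used here, which drops reads shared by genes on opposite strands. It held between 28863 and 56464 reads per library when each strand was counted separately. Since reads fell about evenly on both strands, such stranded counts can include reads of the gene on the opposite strand. They are therefore no level of SOX10 itself. PMEL kept 3.37% of its stranded reads in the column used here, with the same limit. Empty vector replicate 3 stood apart, in that leaving it out raised the genes called higher to 1334 and lower to 1520, and HMGB2 overexpression replicate 3 had 10.6% multimapped reads against 2.58% to 4.89% in the others.

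With HMGB2 overexpression the mean level of UNC5D rose from 0.216 to 3.74 TPM, and that of DCC from near 0 to a low 0.358 TPM. NEO1 rose from a moderate level, and 0 of the 3 ligands passed the test. By DESeq2 the adjusted p was under 0.05 and the change upward for 3 of the 9 members that received an adjusted p (UNC5D, DCC and NEO1), and edgeR called the same number. This was the case for 2.29% of the 18836 genes tested, but the comparison also chose the members, so nothing is read from that share. In the downward direction 0 members were called by DESeq2 or edgeR. By adjusted DESeq2 p, 2.64% of all genes were called lower and 4.94% in either direction. By an unadjusted DESeq2 p under 0.05, 0 members were lower. The share of all genes under that unadjusted threshold was not computed, so nothing is read from such counts here or below. DCC passed the filter on low counts only through the overexpression libraries. Of the 8 members with a mean of 10 or more normalized counts, 5 did not overlap between the groups, beside 22.8% of all genes at that level. UNC5C, UNC5D, DCC and NEO1 were higher and NTN4 lower with HMGB2 overexpression. The median log2 fold change of the 9 members was 0.62, against 0.00 over all genes tested. The count without overlap and this median rest on the same comparison, so nothing is read from them either.

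**Figure D1:**
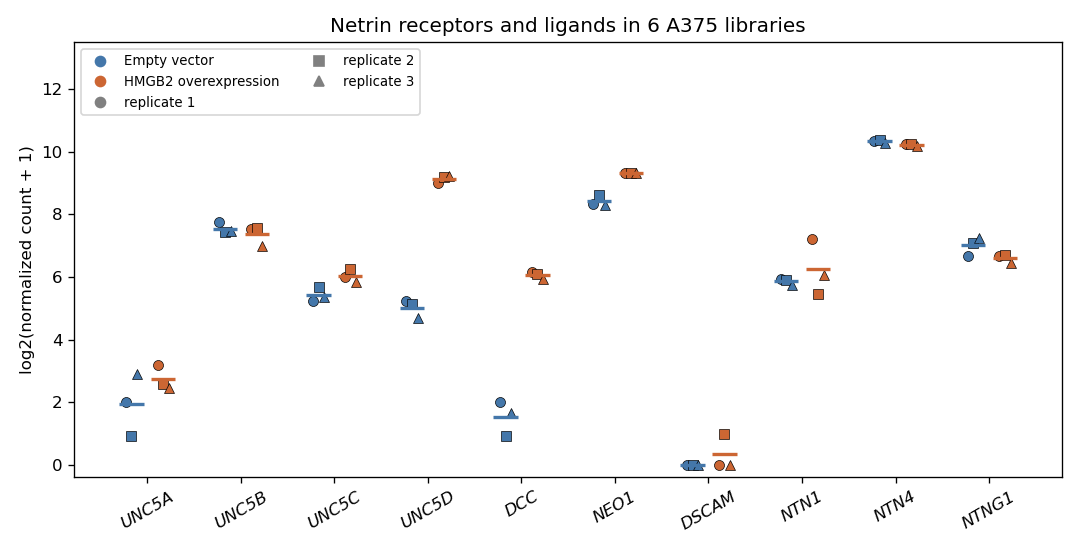
Normalized counts of the 10 members on a log2 scale after adding 1 (vertical axis), in 3 empty vector libraries (blue) and 3 HMGB2 overexpression libraries (orange). Symbols mark the replicate number and bars the group mean of the log2 values. The UNC5D libraries lie at 24.7 to 36.4 against 516 to 595 normalized counts and the DCC libraries at 0.886 to 3.03 against 59.6 to 69.9, while the NTN1 groups overlap.

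DCC and DSCAM are both cell surface receptors of netrin-1 that were at or near 0 with empty vector, and of the pair DCC alone was expressed with HMGB2 overexpression. Their upstream sequences are shown side by side for this reason. Both are the 250 bases before the gene start in RefSeq on GRCh38.p14, read 5′ to 3′ on the strand of the gene, at chr18:52339947-52340196 on the plus strand for DCC and at chr21:40847159-40847408 on the minus strand for DSCAM. Capitals mark each CG dinucleotide, the site of DNA methylation, of which DCC had 10 and DSCAM 14 in these bases.
DCC: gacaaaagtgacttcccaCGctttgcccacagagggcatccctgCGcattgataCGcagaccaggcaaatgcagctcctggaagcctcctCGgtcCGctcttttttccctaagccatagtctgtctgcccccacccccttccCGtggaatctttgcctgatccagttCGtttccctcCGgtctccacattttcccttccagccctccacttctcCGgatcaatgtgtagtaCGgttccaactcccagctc
DSCAM: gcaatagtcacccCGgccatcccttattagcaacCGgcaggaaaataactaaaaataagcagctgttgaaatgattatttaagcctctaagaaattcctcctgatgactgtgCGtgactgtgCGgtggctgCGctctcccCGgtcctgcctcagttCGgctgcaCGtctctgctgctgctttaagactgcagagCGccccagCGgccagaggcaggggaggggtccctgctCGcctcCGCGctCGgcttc
In the whole window of 300 bases, which adds 50 bases after the start, DCC held 15 CG dinucleotides and DSCAM 17, with a G and C content of 58% in each. These counts were near the median of 14 over 35116 promoter windows. The NEO1 window held 35, more than in 85.9% of all windows, and that of UNC5A held 44. UNC5B, UNC5D and NTN1 had no entry in the table. Letters of known elements were searched on both strands in the 10 windows of the other 7 members. The GC box GGGCGG was in 5 of 10 windows, among them NEO1 but not DCC or DSCAM, and in 45.0% of all windows. ACAATG, a form of the SOX site, was in 1 window, of NTNG1, and in 10.8% of all. The AP-1 site TGANTCA and the TATA box TATAAA were in 0 of 10 windows and in 7.71% and 11.5% of all. A match is a description of the sequence, and methylation or binding at these windows was not measured.

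UNC5D, an UNC5 receptor of the developing brain that also binds FLRT proteins, lies on chromosome 8 at 35235475 to 35796550 of GRCh38 on the plus strand. Its normalized counts were 36.4, 34.5 and 24.7 with empty vector, in the order of the replicate numbers, and 516, 590 and 595 with HMGB2 overexpression. The overexpression libraries were all far above the empty vector libraries, and the groups did not overlap. The means were 31.9 ± 6.29 and 567 ± 44.4 (SD, n = 3 each), a ratio of 17.8 and a log2 fold change of 4.15 (SE 0.21). The 98 and 1696 reads behind these means gave a ratio of 17.6 with a 95% interval of 14.3 to 21.8 that covers counting error only. Over 12 alternative settings the log2 fold change stayed between 4.0 and 4.24. In this column 99.7% of the stranded UNC5D reads were kept, and 0% of its 50-base words occurred in another gene, so its reads were not shared with a near copy.

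DCC, the netrin-1 receptor of commissural axons, spans chromosome 18 from 52340197 to 53535899 on the plus strand. It was read 3, 1 and 2 times in the empty vector libraries and 77, 69 and 53 times in the overexpression libraries. Each empty vector library was at or under a floor of 3 reads, which is 0.0529 to 0.0653 counts per 1000000 reads in genes, and each overexpression library was well above it. The 6 and 199 reads gave a ratio of 33.7 after scaling for depth, with a 95% counting interval of 15.2 to 92.9. As normalized counts the means were 2.02 ± 1.08 and 65.9 ± 5.46 (SD, n = 3 each), with a log2 fold change of 5.06 (SE 0.67). The size of the DCC change is thus less certain than its direction, and over the 12 alternatives the log2 value ran from 4.66, without empty vector replicate 2, to 5.49, without empty vector replicate 1.

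NEO1, the widely expressed relative of DCC that also binds repulsive guidance molecules, spans chromosome 15 from 73051710 to 73305205 on the plus strand. Its normalized counts were 323, 397 and 314 with empty vector and 642, 640 and 638 with HMGB2 overexpression. The overexpression libraries lay close together and above all empty vector libraries. They lay closer than counting error alone would give for 567 to 707 reads per library, so this closeness is no measure of reproducibility. The means of 345 ± 45.2 and 640 ± 2.04 (SD, n = 3 each) gave a ratio of 1.86 and a log2 fold change of 0.89 (SE 0.14), which stayed between 0.83 and 1.0 over the 12 alternatives. Only 57 of its 8265 words of 50 bases (0.690%) occurred in another gene.

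The remaining receptors did not pass the test. UNC5C, a receptor that repels axons and that spans chromosome 4 from 95162504 to 95549206 on the minus strand, had 36.4, 50.5 and 39.7 normalized counts with empty vector and 62.7, 75.8 and 56.3 with HMGB2 overexpression. All overexpression libraries were above all empty vector libraries, with means of 42.2 ± 7.38 and 64.9 ± 9.98 (SD, n = 3 each) and a log2 fold change of 0.62 (SE 0.30). Over the alternatives this value was 0.49 to 0.77, and 0 of 12 alternatives gave an adjusted p under 0.05 by DESeq2 or edgeR.

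UNC5B, best known for its part in blood vessel guidance and located on chromosome 10 from 71212570 to 71302864, had 217, 171 and 175 normalized counts with empty vector and 186, 189 and 127 with HMGB2 overexpression. The groups overlapped, and the log2 fold change was -0.16 (SE 0.22). UNC5A, on chromosome 5 from 176810519 to 176880898, was near the floor throughout, with 10 reads over the empty vector libraries and 18 over the overexpression libraries. The scaled ratio of 1.83 had a counting interval of 0.80 to 4.43, so a difference was not detectable at this depth. DSCAM, a large adhesion receptor on chromosome 21 from 40010999 to 40847158, had 0 reads in 5 libraries and 1 read in overexpression replicate 2, which is under the floor of 3 reads.

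Of the 3 ligands, 0 were called by DESeq2 or edgeR, and 0 had an unadjusted DESeq2 p under 0.05. NTN4, a netrin of basement membranes that binds laminin, spans chromosome 12 from 95657807 to 95791189 and was the most abundant member per length in both groups. It had 1303, 1333 and 1257 normalized counts with empty vector and 1213, 1217 and 1170 with HMGB2 overexpression. The overexpression libraries were all slightly below the empty vector libraries, with means of 1298 ± 38.5 and 1200 ± 25.8 (SD, n = 3 each) and a log2 fold change of -0.11 (SE 0.10).

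NTN1, the classical secreted netrin of the floor plate, lies on chromosome 17 from 9021510 to 9244000. It had 60.6, 58.5 and 52.6 normalized counts with empty vector and 146, 43.3 and 65.3 with HMGB2 overexpression. Overexpression replicate 1 stood far above the other libraries, and the groups overlapped. The log2 fold change of 0.57 (SE 0.41) rested on that library and was -0.08 without it. NTNG1, a membrane-anchored netrin that binds the synaptic protein LRRC4C and neither DCC nor UNC5 receptors, spans chromosome 1 from 107140007 to 107484923. Its normalized counts were 102, 136 and 151 with empty vector and 99.9, 103 and 85.5 with HMGB2 overexpression, with overlapping groups and a log2 fold change of -0.43 (SE 0.23). In bulk RNA, fewer cells expressing a gene and less RNA per cell cannot be told apart, and the same holds for the rises above.

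Levels per exon length put the members on one scale. With empty vector the order in TPM was NTN4 (21.6 ± 1.51, SD, n = 3), NEO1 (3.09 ± 0.476), UNC5B (2.00 ± 0.336), NTNG1 (0.896 ± 0.144), NTN1 (0.650 ± 0.0746), UNC5C (0.287 ± 0.0537), UNC5D (0.216 ± 0.0508), UNC5A (0.0570 ± 0.0441) and DCC (0.0112 ± 0.00619), with DSCAM listed at 0. Of the neighbours in that order, UNC5A and DCC overlapped between libraries. With HMGB2 overexpression it was NTN4 (19.6 ± 1.25), NEO1 (5.60 ± 0.256), UNC5D (3.74 ± 0.333), UNC5B (1.75 ± 0.426), NTN1 (0.939 ± 0.599), NTNG1 (0.655 ± 0.0910), UNC5C (0.435 ± 0.0860), DCC (0.358 ± 0.0420), UNC5A (0.0969 ± 0.0335) and DSCAM. Here UNC5B and NTN1, NTN1 and NTNG1, and UNC5C and DCC overlapped. UNC5D moved from place 7 to place 3, while DCC, despite the larger ratio, reached only the range of UNC5C. With the longest transcript as length the empty vector order was identical, and NTN1 and NTNG1 changed places with HMGB2 overexpression.

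The makeup of the receptor families shifted accordingly. The UNC5 receptors together stood at 2.56 ± 0.345 TPM with empty vector and 6.03 ± 0.652 with HMGB2 overexpression (SD, n = 3 each). UNC5D made up 8.39% of that sum with empty vector (6.91% to 9.66% over libraries) and 62.3% with HMGB2 overexpression (57.7% to 68.9%). UNC5B went from 77.9% (75.5% to 80.9%) to 28.9% (23.2% to 32.9%). The groups did not overlap in either share, and the fall in the UNC5B share came with overlapping UNC5B counts. All shares here rest on the comparison that selected the family, so they are a description and no further result. DCC made up 0.380% of the sum of DCC and NEO1 with empty vector and 6.0% with HMGB2 overexpression, so NEO1 remained the main transcript of that pair. NTN4 supplied 93.3% of the summed level of the 3 member ligands with empty vector and 92.5% with HMGB2 overexpression. This sum leaves out NTN3, NTN5 and NTNG2.

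**Figure D2:**
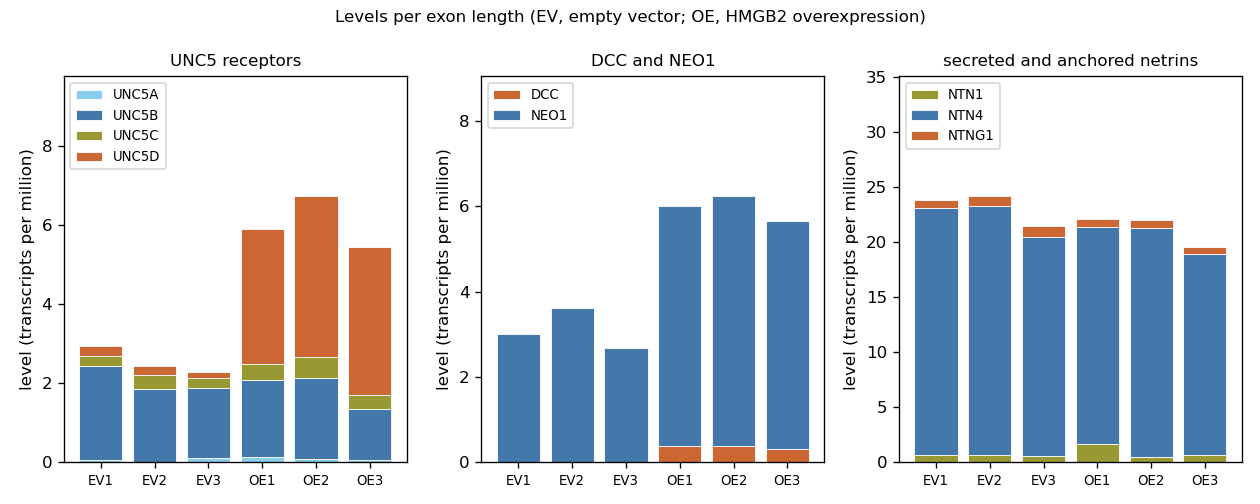
Stacked levels in TPM (vertical axes, starting at 0) of the UNC5 receptors, of DCC and NEO1, and of the 3 netrin ligands, in each of 6 libraries (EV, empty vector; OE, HMGB2 overexpression). UNC5D makes up 57.7% to 68.9% of the UNC5 bars in the overexpression libraries against 6.91% to 9.66% with empty vector, and NTN4 dominates the ligand bars in all 6 libraries.

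With 1 added to the normalized counts, UNC5D and DCC lay near each other across the 6 libraries. Likeness was measured as the root mean square difference of the log2 normalized counts (after adding 1), each centred on its mean over the libraries. Among 16691 other genes DCC was the second nearest to UNC5D, at 0.445, and UNC5D was the nearest to DCC. SH3GL2, an endophilin of synaptic vesicle recycling, was the nearest to UNC5D at 0.353, with 18.2, 14.2 and 16.1 normalized counts with empty vector and 184, 190 and 219 with HMGB2 overexpression. CYSLTR1, a leukotriene receptor, followed for UNC5D at 0.468, with 0, 1.77 and 0 normalized counts with empty vector and 27.3, 25.6 and 24.8 with HMGB2 overexpression. For DCC the list went on with SH3GL2 at 0.566 and CTAG2, a cancer-testis antigen, at 0.629. NEO1 stood at place 245 from UNC5D and 296 from DCC. With 10 added in place of 1, 2 of the 3 genes nearest to UNC5D and 1 of the 3 nearest to DCC were the same. The genes nearest to DCC thus depended on the number added, and the distance between UNC5D and DCC with 10 added is not given. These profiles include the step between the 2 groups, on which the members were chosen, so the distances are a description.

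Other genes of the netrin pathway were taken from a list of 64, holding the remaining netrin family, other ligands and receptors, cytoskeletal effectors, kinases, death effectors and proteases. The list was drawn up with earlier results of these data known. Of its 56 genes with an adjusted p, 0 were called higher and 1 lower by DESeq2, with the same counts by edgeR, against 2.29% and 2.64% of all genes. At an unadjusted DESeq2 p under 0.05 there were 3 higher and 5 lower. No share of all genes was computed at this threshold, so genes named for it below are a description. Of the 55 with a mean of 10 or more normalized counts, 13 did not overlap between the groups, beside 22.8% of all genes at that level. The median log2 fold change was -0.04 and the range -0.81 to 0.68. Without empty vector replicate 3, DESeq2 called 4 of 55 tested list genes higher and 10 lower, beside 8.31% and 9.46% of all genes tested at that setting. With the replicate number as a block it called 3 of 53 higher and 5 lower, beside 6.09% and 6.46%.

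ROBO3, a receptor that in mammals takes part in netrin-1 attraction through DCC, was the gene called lower. It had 708, 649 and 582 normalized counts with empty vector and 370, 448 and 287 with HMGB2 overexpression. All overexpression libraries were below all empty vector libraries. Its change was -0.81 on the log2 scale (SE 0.18) at a DESeq2 adjusted p of 0.000501, and all 12 alternatives called it, with adjusted p from 1.48e-06 to 0.0364 by DESeq2 or edgeR.

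Among the netrin family genes that are not members, NTN3 had 13.1, 20.4 and 15.0 normalized counts with empty vector and 20.9, 21.7 and 22.5 with HMGB2 overexpression, which did not pass the test (log2 fold change 0.42, SE 0.46, DESeq2 adjusted p = 0.799). NTNG2, the second membrane-anchored netrin, had 54.0 to 76.2 normalized counts with empty vector and 44.5 to 77.8 with HMGB2 overexpression. NTN5, UNC5CL and DSCAML1 were at 0 to 10.8 normalized counts in every library.

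Alternative ligands were measured too. FLRT3, which binds UNC5 receptors including UNC5D, was at 3907 normalized counts with empty vector and 3250.2 with HMGB2 overexpression without overlap (log2 fold change -0.27, SE 0.09, DESeq2 adjusted p = 0.077). FLRT1 (-0.79, SE 0.38) stood at 127 and 140 normalized counts in empty vector replicates 1 and 2 and at 47.2 in replicate 3. Without replicate 3 both FLRT3 (-0.29) and FLRT1 (-1.14) were called lower. FLRT2 changed by 0.08 (SE 0.17) on the log2 scale, and the neogenin ligands RGMA and RGMB by 0.35 (SE 0.35) and -0.23 (SE 0.14). RGMB kept only 30.4% of its stranded reads, which can include reads of a gene on the opposite strand. NELL2, a ligand of ROBO3, had a log2 fold change of -0.24 (SE 0.18). HJV and CBLN4 had 0 reads in all libraries, and DRAXIN, a ligand of both netrin-1 and DCC, had 0 to 2.25 normalized counts.

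Other receptors and co-receptors showed log2 fold changes of 0.35 (SE 0.17) for ADGRL3, the latrophilin that binds FLRT3, -0.27 (SE 0.14) for MCAM, a melanoma adhesion molecule, -0.26 (SE 0.16) for LRIG2, an inhibitor of neogenin shedding, and 0.04 (SE 0.15) for ADORA2B. The integrin chains ITGA6, ITGA3, ITGB4 and ITGB1 lay between -0.15 and 0.12. MCAM, ITGA3 and ITGB4 were called lower without empty vector replicate 3, at -0.37, -0.32 and -0.27. LRRC4C and LRRC4, partners of the membrane-anchored netrins, had 0 to 6.06 normalized counts.

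With all 6 libraries, 0 genes of the downstream groups were called in either direction by DESeq2 or edgeR. Without empty vector replicate 3, CDC42 (0.39), CDK5, PPP2R1B and APPL1 were called higher and TRIO, EVL, MAP1B and FYN (-0.54) lower, and with the replicate block CDC42, PPP2R1B and MAGED1 higher and MAP1B and FYN lower. The 20 cytoskeletal effectors had a median log2 fold change of 0.01 over the 19 with an adjusted p, with 1 gene higher and 0 lower at an unadjusted p under 0.05 (TUBB3). MAP1B, a microtubule protein downstream of netrin-1, had a log2 fold change of -0.78 (SE 0.47), where the empty vector libraries were at 2258, 2315 and, in replicate 3, 892 normalized counts. Without that library its value was -1.10. The 6 kinase, phosphatase and lipid genes had a median of -0.05, with 0 higher and 1 lower (FYN) by unadjusted p. The 7 death effectors of dependence receptors had a median of 0.17, with 1 higher (MAGED1, which binds UNC5 receptors) and 0 lower. The 6 genes of receptor shedding and turnover had a median of -0.09, with 0 higher and 1 lower (SIAH2, a ubiquitin ligase for DCC).

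**Figure D3:**
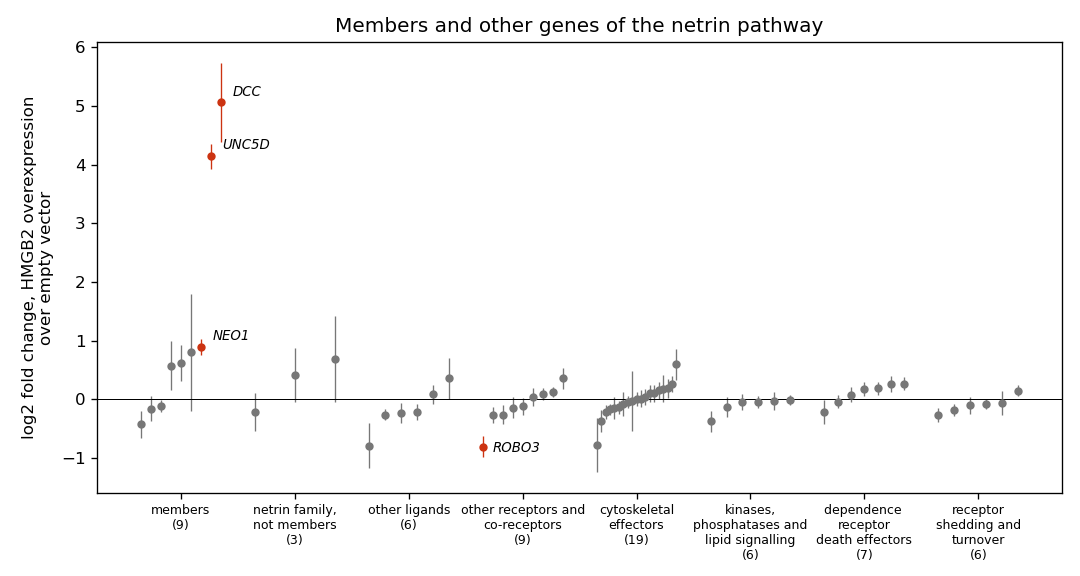
Log2 fold change of HMGB2 overexpression over empty vector (vertical axis) for the members and the 7 groups of the pathway list, with the number of genes that received an adjusted p in brackets, points as genes and bars as 1 SE. UNC5D at 4.15 and DCC at 5.06 stand above all other points, and ROBO3 at -0.81 is the gene of the list called at an adjusted p under 0.05.

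Genes near the members were compared to see whether the rises extended along the chromosome. Within 1000000 bases of a member lay 137 other genes with a mean of 10 or more normalized counts, of which 1 was called higher and 4 lower, or 3.65%, against 4.94% of all genes tested. Near UNC5D 2 of 21 annotated genes had that level. The pseudogene LSM12P1 lies inside UNC5D, with a log2 fold change of -0.15 (SE 0.48), and the gene ENSG00000253363 lies 581519 bases after its end, with 0.23 (SE 0.18). Near DCC 4 of 23 annotated genes had that level, all of them 615707 to 870990 bases after its end, so regions closer to DCC were not sampled. These 4, among them the methyl-CpG-binding gene MBD2 and the polymerase gene POLI, ranged from -0.07 to 0.31. The 18 near NEO1 ranged from -0.46 to 0.59. No gene near these receptors was called by DESeq2 or edgeR, while an unadjusted p under 0.05 was reached by 0 near UNC5D and DCC and by 1 higher and 1 lower near NEO1. Without empty vector replicate 3, SNRPGP2 near DCC and PKM near NEO1 were called higher, at 0.58 and 0.34, and STRA6 near NEO1 lower, at -0.37. At that setting 8.31% of all genes tested were called higher and 9.46% lower, so nothing about these positions is read from the calls.

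**Figure D4:**
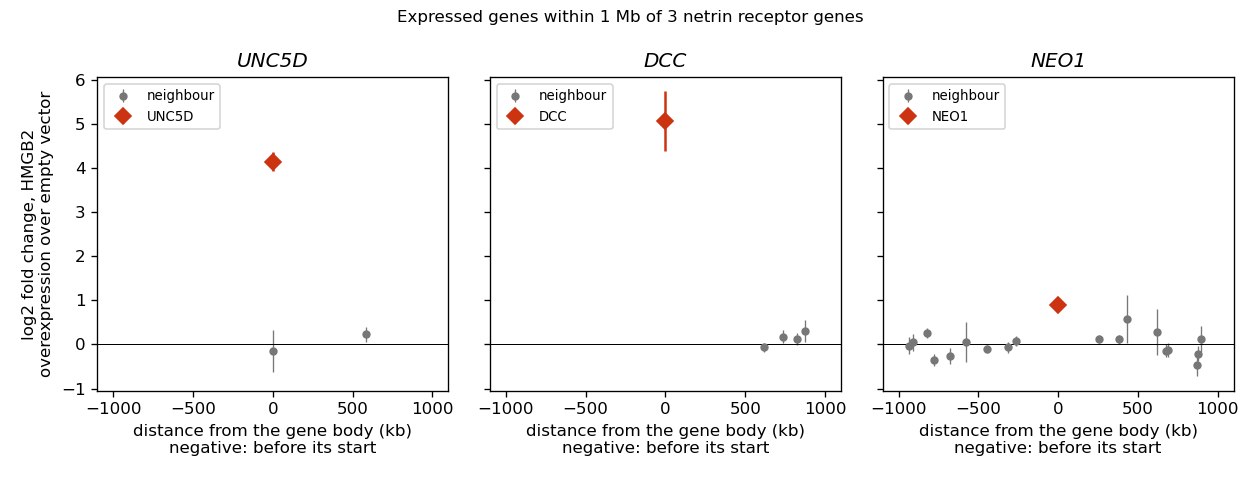
Log2 fold change of HMGB2 overexpression over empty vector (vertical axis) against distance from the gene body in kb (horizontal axis, negative before the start), for UNC5D, DCC and NEO1 (red diamonds) and the genes around each with a mean of 10 or more normalized counts (grey points), bars as 1 SE. The neighbours lie between -0.46 and 0.59, below the receptor in each panel.

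The called neighbours were near other members. VAV3, which lies 86238 bases after NTNG1, rose from 49.5, 43.4 and 49.4 to 123, 83.7 and 94.5 normalized counts (log2 fold change 1.09, SE 0.27, DESeq2 adjusted p = 0.00313). USP43, a deubiquitinase near NTN1, fell by 0.74 on the log2 scale (SE 0.18, DESeq2 adjusted p = 0.0017). RIPK4 near DSCAM, SGPL1 near UNC5B and PDLIM7 near UNC5A fell by 0.38, 0.37 and 0.48 on the log2 scale. Of 12 alternatives, 9 called VAV3, 11 USP43, 6 each RIPK4 and SGPL1, and 5 PDLIM7. Removing overexpression replicate 1 ended the VAV3 call (0.91, DESeq2 adjusted p = 0.193), as did removing empty vector replicate 1 or 2, and the USP43 call ended without empty vector replicate 1 (-0.63, adjusted p = 0.0876).

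Marker genes of neurons, in which UNC5D and DCC are known to be expressed, did not move in 1 direction. Of 6 such markers, SNAP25 rose from 87.4 to 184 normalized counts (log2 fold change 1.07, DESeq2 adjusted p = 0.00146), while SYT1 fell by 0.81 on the log2 scale (DESeq2 adjusted p = 0.00328) and RBFOX3 fell from 23.7 to 0.959 normalized counts. GAP43 rose from 78.7 to 125 normalized counts without overlap but was not called (DESeq2 adjusted p = 0.0713). STMN2 changed by 0.01 on the log2 scale, and ELAVL4 was near 0 in all libraries. The summed level of the 6 neuron markers, which rests mainly on SYT1, was 10.6 to 17.2 TPM with empty vector and 9.84 to 13.3 with HMGB2 overexpression. Of 5 fibroblast markers 0 were called by DESeq2, with a summed level of 31.9 to 44.6 and 42.2 to 51.5 TPM, while the 3 leukocyte markers received no adjusted p. PTPRC was at 0 in every library, whereas CD68 kept 0.299% of its stranded reads in this column and had 191 to 264 reads per library when each strand was counted separately. Those stranded reads can include reads of a gene on the opposite strand. The part of other cell types in the UNC5D and DCC values was not tested.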

How the data were processed

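For each of 6 libraries of poly(A)-selected RNA the authors deposited a STAR table of read counts, whole numbers that had not been normalized. The submitters' processing notes name bcl2fastq 2.20, FastQC, Trimmomatic, STAR and GRCh38. The STAR version and the annotation release are not given in the sources used here. In such tables a read counts only if it aligns uniquely and overlaps no second gene. Of the 3 count columns, the one for reads of either strand was used, since the first strand held 50.1% to 50.2% of stranded reads. The 4 summary lines entered neither library sizes nor tests. Reads ambiguous between genes made up 10.7% to 11.4% of all reads, and genes overlapping a gene on the opposite strand lose reads in this column. The stranded reads of such a gene can include those of the opposite gene. The members kept 97.9% to 100% of their stranded reads.

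Symbols and coordinates came from GENCODE 44 on GRCh38 (57532 of 58302 IDs matched, the rest holding 0.0575% of counts). Samples were grouped by the genotype in their labels. The test was that of DESeq2 1.42.0 under R 4.3.3 (Wald test, default parameters, group alone), after the study's methods, on the whole table, with Benjamini-Hochberg adjustment and a threshold of 0.05. Log2 fold changes are unshrunken. TPM used the union of annotated exons. Counting intervals are exact binomial intervals at 95%, and these and the floor of 3 reads cover counting error only. The alternatives were edgeR 4.0.16 (quasi-likelihood test, TMM), DESeq2 with TMM factors, only genes with 10 counts in 3 libraries, independent filtering switched off, stranded columns summed, a replicate block, and leaving out each library. The fits were tested on simulated data.

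The members and lists were chosen with earlier results of these data known. Genes named were the 10 members, HMGB2, the other netrins, the alternative ligands and receptors of the list, list and neighbouring genes called at the adjusted threshold, and the 3 genes nearest to UNC5D and to DCC. Genes named for an unadjusted p, a marker list or a call without 1 library, together with MAP1B, UNC5CL, DSCAML1, MBD2, POLI and the genes next to UNC5D, were singled out after their values were seen. Promoter sequences came from RefSeq on GRCh38.p14 (7 of 10 members matched, with 10 windows). Protein sequences were not used here.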

Additional observations from a re-analysis of the deposited data

How the results depend on the processing

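The members' log2 fold changes kept their sign in every alternative that gave one, except NTN1 (-0.08 without overexpression replicate 1). The counts depended more on the settings. Over all genes, 215 were called higher and 255 lower by edgeR, and 886 and 940 with the replicate block. Leaving out 1 library gave 155 to 1334 higher and 208 to 1520 lower. For the pathway list the block gave 3 higher and 5 lower, and leaving out 1 library 0 to 4 higher and 1 to 10 lower. Of the 137 neighbouring genes edgeR called 2 and the block 13, and leaving out 1 library 0 to 20. Over all genes tested, the share called was 12.5% with the block and 17.8% without empty vector replicate 3. Such a share is not given for edgeR or for leaving out another library. The high ends of these ranges came without empty vector replicate 3 and the low ends of the counts over all genes without empty vector replicate 1. The cause was not tested. Same-numbered libraries correlated at 0.0906, 0.142 and 0.349 in their deviations from the group means. Replicate 3 of either group correlated negatively, at -0.272 to -0.137, with replicates 1 and 2 of the other group. Whether the number 3 libraries share a batch was not tested. Empty vector replicate 1 correlated best with overexpression replicate 2 (0.212), so the numbers were not taken as pairs in the main test, and the replicate block is given as an alternative. HMGB2 stayed at 0.98 to 1.09 and was called in all 12. Depth limits UNC5A and DSCAM, and the size of the DCC change. The planned comparison of protein sequences was not run.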
